A study of Mus musculus with 16 samples.

Results

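The genes described here make sterols and fatty acids or control that synthesis. They are 34 of the 50508 genes in the table, chosen by gene symbol: 24 sterol genes, from the entry of acetyl-CoA into the mevalonate pathway to the last steps of cholesterol synthesis and its regulators, and 10 fatty acid genes. Each of the 34 symbols was found in the table and each passed the filter on low counts, so no gene of either set is left out of the counts given below.

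RNA was sequenced from wild-type mouse bone marrow-derived monocytes, kept with M-CSF (macrophage colony-stimulating factor), the growth factor that drives such cells towards macrophages. Cells of 4 mice, labelled WT1 to WT4 and called animals 1 to 4 here, each received vehicle, PFM037, TNF (tumour necrosis factor) or PFM037 and TNF together, and were harvested at 24 h, which gives 4 groups of 4 libraries with every animal in every group. M-CSF was common to all groups, the vehicle included. PFM037 is known here only by its code name. Its dose, that of TNF, and the age and sex of the mice could not be stated from the labels. Library totals ran from 14114703 to 20125134 counts with vehicle, from 11142804 to 18845228 with PFM037, from 9403232 to 21017905 with TNF and from 15092524 to 18694616 with both.

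Cholesterol is built from acetyl-CoA through mevalonate, isoprenoid units, squalene and lanosterol. SREBP2, the product of Srebf2, is a transcription factor held in the endoplasmic reticulum by Scap and the Insig proteins when sterols are plentiful, and it is released to switch on the pathway when they are scarce. SREBP1, the product of Srebf1, does the same chiefly for fatty acid synthesis, in which acetyl-CoA is carboxylated, joined into palmitate, lengthened and desaturated. In macrophages both routes are known to be adjusted during inflammatory activation.

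The labelled cell type was checked against its markers. All 12 monocyte and macrophage markers were detected, with Lyz2 at 19000 to 36800 and Csf1r, the M-CSF receptor, at 1010 to 2860 CPM (a gene's count scaled to library size with edgeR's TMM factors) over the 16 libraries. Neutrophil granule genes were also present: the 10 summed to 10400 to 25500 CPM, with Ngp at 1790 to 4910 CPM. The 8 lymphocyte markers summed to at most 68.3 CPM, the 8 stromal and adipocyte markers to at most 8.6 CPM, the 6 dendritic cell markers to at most 67.6 CPM and the 9 mast cell, basophil and eosinophil markers to at most 565 CPM. Erythroid genes summed to 842 to 3100 CPM. Libraries of the same animal deviated together from their group means, each animal was in every group, and the main test took the animal as a block. In bulk RNA, fewer cells of a type and less RNA per cell cannot be told apart.

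Promoter sequences for 27 of the 34 genes were found in a RefSeq table of build GRCm38.p6, which gives 250 bases before and 50 after a gene's start; they had 35 promoters, 26 of sterol and 9 of fatty acid genes. The sequences of 4 are printed, 5′ to 3′ on the gene's own strand: Hmgcs1, because it alone among the 35 held the sterol regulatory element searched for, Cyp51 and Insig1 as genes that fell with TNF, and Acss2 as the gene that rose. Capitals mark the sterol regulatory element TCACNCCAC and the NF-Y box CCAAT, read on either strand (ATTGG is the NF-Y box on the other strand). The GC box GGGCGG was also searched on both strands and is left in lower case. No matches overlap one another in these 4 promoters.
Hmgcs1, chr13:119690101-119690400, plus strand: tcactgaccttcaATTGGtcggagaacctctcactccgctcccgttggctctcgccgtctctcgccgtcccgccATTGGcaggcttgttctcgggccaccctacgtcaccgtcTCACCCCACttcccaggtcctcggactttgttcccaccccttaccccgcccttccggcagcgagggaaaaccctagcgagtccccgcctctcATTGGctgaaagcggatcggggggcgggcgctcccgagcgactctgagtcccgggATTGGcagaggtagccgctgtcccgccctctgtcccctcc
Cyp51, chr5:4104648-4104947, minus strand: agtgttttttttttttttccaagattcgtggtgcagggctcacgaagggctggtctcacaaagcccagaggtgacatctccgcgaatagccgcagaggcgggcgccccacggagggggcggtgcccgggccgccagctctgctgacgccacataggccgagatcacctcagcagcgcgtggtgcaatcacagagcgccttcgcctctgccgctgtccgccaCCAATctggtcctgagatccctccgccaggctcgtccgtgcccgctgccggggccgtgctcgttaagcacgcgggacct
Insig1, chr5:28071162-28071461, plus strand: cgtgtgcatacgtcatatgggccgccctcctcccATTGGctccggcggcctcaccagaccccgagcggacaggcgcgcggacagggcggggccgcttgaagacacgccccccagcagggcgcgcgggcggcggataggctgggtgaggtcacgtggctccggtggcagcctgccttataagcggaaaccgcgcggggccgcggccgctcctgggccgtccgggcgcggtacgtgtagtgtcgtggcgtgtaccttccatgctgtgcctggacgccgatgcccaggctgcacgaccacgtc
Acss2, chr2:155517793-155518092, plus strand: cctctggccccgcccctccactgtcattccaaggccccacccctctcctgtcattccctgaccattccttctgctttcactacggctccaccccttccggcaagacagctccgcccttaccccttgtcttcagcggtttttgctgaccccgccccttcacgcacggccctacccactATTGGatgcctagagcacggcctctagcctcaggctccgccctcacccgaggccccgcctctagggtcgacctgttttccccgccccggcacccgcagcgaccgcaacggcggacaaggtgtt

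The sterol regulatory element in these letters was in 1 of 26 sterol promoters and in 0 of 9 fatty acid promoters, against 1.24% of all 32851 promoters in the table. In Hmgcs1 it lay at -137 to -129 from the start. The NF-Y box, which often accompanies SREBP sites, was in 18 of 26 sterol promoters (69.2%) and in 5 of 9 fatty acid promoters (55.6%), against 37.4% of all promoters and 38.0% of those of genes tested here. Hmgcs1 held 4 such boxes, and Cyp51, Insig1 and Acss2 held 1 each. The GC box was in 22 of 26 sterol promoters (84.6%) and in 5 of 9 fatty acid promoters, against 35.7% of all promoters and 61.0% of those of genes tested. These are matches of letters and no measure of binding.

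With TNF, sterol genes were lower almost throughout: 18 of 24 fell, 0 rose, and 23 of 24 had a log2 change below 0, with a median of -0.36 against -0.02 for all 13856 genes tested. The median difference within animals 1 to 4 was -0.37, -0.46, -0.43 and -0.42, so each animal showed it at nearly the same size. Squalene epoxidase Sqle, the lanosterol demethylase Cyp51 and the final reductase Dhcr7 stood at 0.621, 0.607 and 0.644 of vehicle, and these 3 also passed the test that ignores the animal. Fatty acid genes were less uniform, with 3 of 10 lower (Elovl6, Fads1 and Fasn), 1 higher (Acss2) and a median of -0.29.

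These calls come from edgeR's quasi-likelihood test with the animal as a block, at a Benjamini-Hochberg adjusted p of 0.05 taken across the 13856 genes, and every adjusted p given is of this kind. By this rule 19.4% of all genes were called, 9.84% lower and 9.59% higher. The 75.0% of sterol genes called lower stands against that 9.84%, while for the fatty acid genes the count called lower was 3 of 10. Without the block 3 sterol genes were called (Sqle, Cyp51 and Dhcr7), and 1 fatty acid gene (Elovl6), where 2.68% of all genes were called, 0.88% lower and 1.8% higher. The spread that the block removes lies between animals: the common biological coefficient of variation was 0.252 without it and 0.0973 with it.

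**Figure D1:**
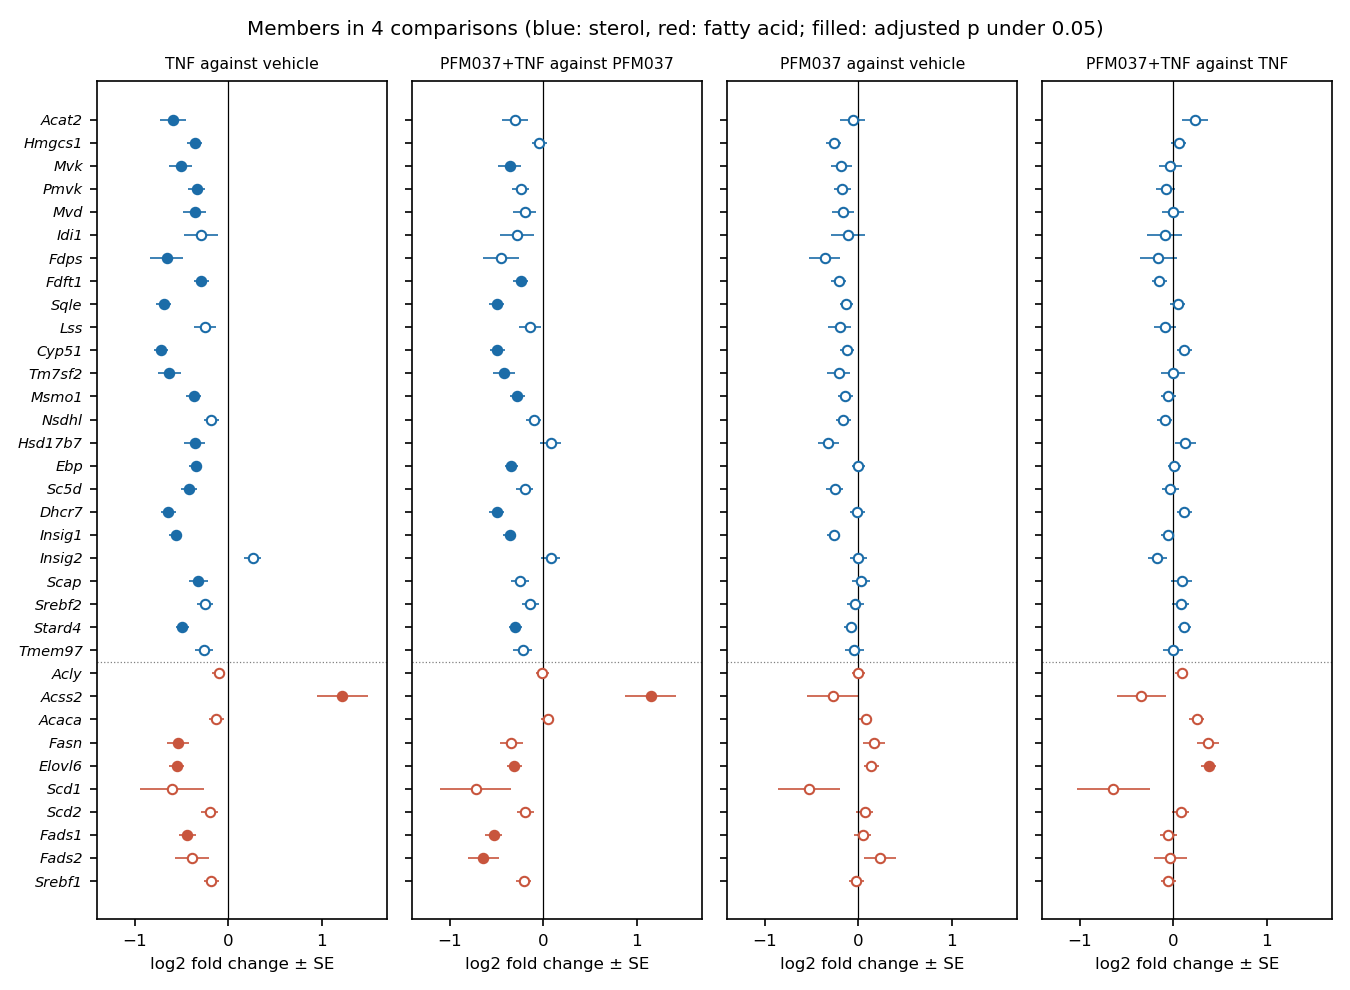
Log2 fold change with its standard error for the 24 sterol genes (blue, in pathway order) and the 10 fatty acid genes (red) in 4 comparisons; filled points passed the adjusted p threshold of 0.05. Sterol genes lie left of 0 in both panels that add TNF, 23 of 24 without and 22 of 24 with PFM037, and Acss2 lies far to the right. In the panel of PFM037 against vehicle 22 of 24 sterol genes also lie left of 0, and 0 of 24 passed.

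The opening steps of the pathway turn acetyl-CoA into mevalonate and then into isoprenoid units. Hmgcs1, the HMG-CoA synthase, measured 77.8, 72.5, 116 and 123 CPM with vehicle and 57.8, 68.0, 88.1 and 87.0 CPM with TNF in animals 1 to 4, lower in each animal with overlapping groups (log2 -0.36, SE 0.08, adjusted p = 0.006). Mvk, mevalonate kinase, went from 16.1, 21.2, 16.1 and 19.4 to 10.4, 12.3, 14.8 and 14.1 CPM, with no overlap (log2 -0.51, SE 0.12, adjusted p = 0.00506). Acat2, the cytosolic thiolase that condenses acetyl-CoA, reached 0.664 of vehicle (log2 -0.59, SE 0.14, adjusted p = 0.00627). Animal 3 set the upper end of Mvk with TNF and had the smallest difference, 0.11 on the log2 scale below vehicle. Each of these 3 calls was lost when a single animal was left out: Hmgcs1 without animal 4 (adjusted p = 0.0758), Mvk without animal 1 (0.0546) and Acat2 without animal 2 (0.0646).

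Further along, Pmvk, phosphomevalonate kinase, fell to 0.792 of vehicle (log2 -0.34, SE 0.09, adjusted p = 0.0189) and Mvd, mevalonate decarboxylase, to 0.781 (log2 -0.36, SE 0.12, adjusted p = 0.0477). Fdps, which makes farnesyl diphosphate, fell to 0.634 of vehicle (log2 -0.66, SE 0.18, adjusted p = 0.0179), and Fdft1, squalene synthase, to 0.817 (SE 0.08, adjusted p = 0.0146). Idi1, the isomerase of the isoprenoid units, stood at 0.815 of vehicle and did not pass (adjusted p = 0.287), and animal 2 had a higher value with TNF. Of 20 fits that left out an animal or a single library, Mvd missed the threshold in 16, Pmvk and Fdps in 6 each and Fdft1 in 5, with the adjusted p at most 0.253, 0.131, 0.0931 and 0.125. Several were counted under conditions that leave some reads uncertain. Fdps was low, at 1.76 to 4.58 CPM in all libraries, and shares up to 1062 near-identical bases with its copies Gm3571 and Gm5873. Idi1 and Fdft1 also have near-identical copies, and Fdft1 overlaps Ctsb on the other strand. Acat2 shares near-identical sequence with Acat3 and Tcp1. These 2 genes summed to a mean of 395 CPM over 16 libraries, of which Acat3 had 2.1, against 11.0 CPM for Acat2. Their part in the Acat2 count was not tested.

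Sqle, squalene epoxidase, a rate-limiting enzyme of the later pathway, measured 69.8, 80.8, 80.5 and 83.5 CPM with vehicle and 46.1, 49.2, 45.8 and 54.3 CPM with TNF in animals 1 to 4. The groups did not overlap, and the animals lay close together (log2 -0.69, SE 0.08, 0.621 of vehicle, adjusted p = 9.33e-06). Treatment group accounted for 89.9% of the sum of squares of its log2 CPM over 16 libraries and the animal for 3.69%, the largest and the smallest share among the 34 genes. Sqle lies on chromosome 15 at 59315077 to 59331192 (GRCm38, plus strand) and overlaps no other annotated gene.

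Cyp51, which removes a methyl group from lanosterol and whose promoter is printed above, measured 64.4, 66.4, 88.0 and 93.6 CPM with vehicle and 37.2, 44.8, 49.5 and 58.1 CPM with TNF. Each TNF library was below each vehicle library (log2 -0.72, SE 0.08, adjusted p = 1.17e-05). It overlaps Akap9 on the other strand, and Akap9 went the other way (log2 0.45, SE 0.12, adjusted p = 0.0149). Cyp51 lies on chromosome 5 at 4081145 to 4104746 (minus strand).

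Tm7sf2, a sterol reductase that acts after Cyp51, measured 6.33, 7.61, 10.1 and 10.8 CPM with vehicle and 4.06, 4.14, 7.03 and 7.73 CPM with TNF. Every animal was lower, while the groups overlapped because animals 3 and 4 were higher in both (log2 -0.63, SE 0.12, adjusted p = 0.00148). It overlaps Vps51 on the same strand, which stood at 0.936 of vehicle (adjusted p = 0.392). Msmo1, a methylsterol oxidase, measured 76.7, 69.6, 91.8 and 95.4 CPM with vehicle and 57.2, 57.9, 67.4 and 76.3 CPM with TNF, lower in each animal with overlapping groups (log2 -0.37, SE 0.08, adjusted p = 0.00267).

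Ebp, the sterol isomerase, measured 41.8, 38.5, 50.5 and 47.6 CPM with vehicle and 34.9, 31.2, 39.7 and 33.7 CPM with TNF. The groups overlapped only through animal 3 with TNF, at 39.7 CPM (log2 -0.35, SE 0.07, adjusted p = 0.00247). Dhcr7, which completes cholesterol from its last precursor, measured 17.5, 19.3, 21.4 and 26.2 CPM with vehicle and 12.0, 12.5, 14.0 and 15.5 CPM with TNF. Its groups did not overlap (log2 -0.64, SE 0.08, adjusted p = 3.84e-05). Dhcr7 lies on chromosome 7 at 143823145 to 143848410 (plus strand), Ebp on chromosome X at 8185329 to 8193512 (minus strand), and neither overlaps another annotated gene.

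Of the remaining enzymes after squalene, the desaturase Sc5d fell to 0.749 of vehicle (log2 -0.42, SE 0.09, adjusted p = 0.00356) and Hsd17b7, a ketosteroid reductase, to 0.779 (SE 0.11, adjusted p = 0.0274). Hsd17b7 missed the threshold in 7 of the 20 fits, and Sc5d in none. Lanosterol synthase Lss stood at 0.84 of vehicle (adjusted p = 0.163) and the dehydrogenase Nsdhl at 0.884 (adjusted p = 0.122), and neither passed. Sqle, Cyp51, Tm7sf2, Msmo1, Ebp, Sc5d and Dhcr7 passed in all 20 fits.

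**Figure D2:**
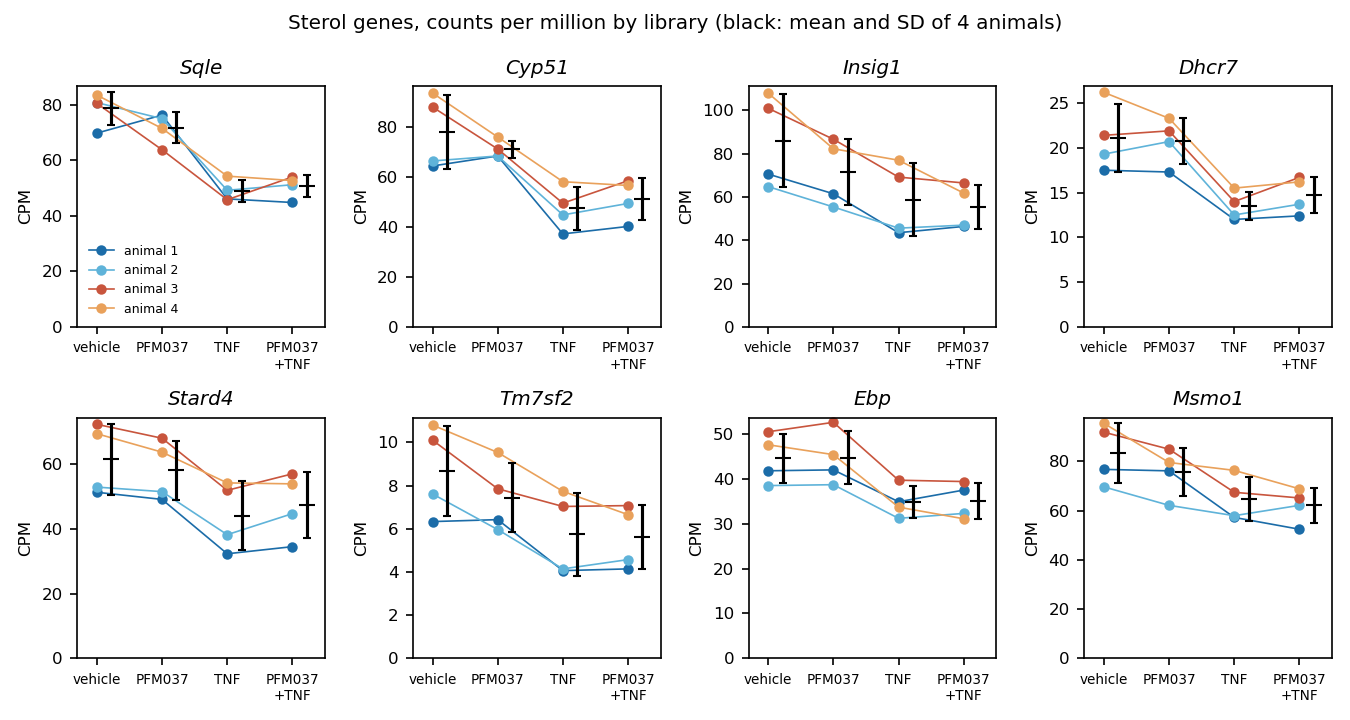
CPM in each library for the 8 sterol genes with the smallest p in TNF against vehicle, from an axis that starts at 0; coloured lines join the 4 libraries of an animal and black marks give the mean and SD of 4 animals. The step down lies between the groups without and with TNF. Animals 3 and 4 lie above animals 1 and 2 in all 4 groups for Cyp51, Insig1, Dhcr7, Stard4, Tm7sf2 and Msmo1.

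Among the regulators, Insig1 and Stard4, both known targets of SREBP2, fell. Insig1, which retains the SREBP complex in the endoplasmic reticulum, measured 70.6, 64.8, 101 and 108 CPM with vehicle and 43.5, 45.6, 69.2 and 77.0 CPM with TNF. Each animal dropped, by 0.48 to 0.69 on the log2 scale, and the groups overlapped because animals 3 and 4 started higher (log2 -0.56, SE 0.07, adjusted p = 2.85e-05). Stard4, a cholesterol carrier between membranes, measured 51.3, 52.9, 72.3 and 69.4 CPM with vehicle and 32.3, 38.2, 51.9 and 54.2 CPM with TNF, in the same arrangement (log2 -0.49, SE 0.07, adjusted p = 8.11e-05).

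Insig2, the second Insig protein, did not go with Insig1: it measured 30.6, 22.0, 29.2 and 29.4 CPM with vehicle and 32.5, 27.8, 36.5 and 36.2 CPM with TNF. It was the only sterol gene above 0, at log2 0.26 (SE 0.09, adjusted p = 0.0702), higher in 4 of 4 animals and short of the threshold. Srebf2 measured 160.0, 222, 210.0 and 232 CPM with vehicle and 144, 172, 187 and 188 CPM with TNF, lower in 4 of 4 animals (log2 -0.25, SE 0.09, adjusted p = 0.059) and also short of it. Scap, the escort protein of SREBP, measured 45.6, 64.3, 40.4 and 39.0 CPM with vehicle and 43.3, 45.5, 32.2 and 30.6 CPM with TNF (log2 -0.32, SE 0.10, adjusted p = 0.0417), and this call was missed in 14 of the 20 fits. Tmem97, a sterol-responsive membrane protein, stood at 0.837 of vehicle and did not pass (adjusted p = 0.0952).

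The median of the sterol genes hides different starting levels. Levels were set per kilobase of annotated exon, with all transcripts of a gene merged. With vehicle they ran from 0.913 ± 0.179 CPM per kb for Fdps (SD, n = 4) to 28.7 ± 4.48 for Srebf2 and 27.8 ± 6.95 for Insig1. The spreads of Srebf2 and Insig1 overlap. The level of Fdps is uncertain, since reads shared with its near-identical copies may be missing from its count. Hmgcs1 (21.2 ± 5.66), Ebp (19.3 ± 2.35) and Cyp51 (17.7 ± 3.35) came next on the same scale and did not differ beyond their spread. Sqle stood at 14.2 ± 1.1, Msmo1 at 13.6 ± 1.99 and Dhcr7 at 3.63 ± 0.648 CPM per kb. Genes with large log2 changes were thus found at high and at low levels.

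For 15 of the 18 sterol genes that fell, the call rested on the block, since without it their adjusted p lay between 0.0656 (Mvk) and 0.559 (Scap). Measured without any model, each TNF library was below each vehicle library for 4 sterol genes (Mvk, Sqle, Cyp51 and Dhcr7), or 16.7% of them, against 3.81% of all genes, and each was above for 4.44% of all genes. Without a library or an animal the count of called sterol genes ran from 12 to 21. With scaling by library size alone the sterol median was -0.42, where 15.5% of all genes were called lower in place of 9.84%.

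The 14 measured genes of the wider sterol pathway had a median log2 change of -0.00 with TNF. Among them the thiolase Acat1 fell to 0.893 of vehicle (log2 -0.16, SE 0.05, adjusted p = 0.0417), a call missed in 15 of the 20 fits. Of 9 measured genes in the LXR and cholesterol efflux list, some of which respond to surplus cholesterol, 4 lay above 0 and 5 below. Their median was -0.05. Abca1, the cholesterol exporter, rose 2.13-fold (SE 0.14, adjusted p = 2.78e-05). Apoe fell to 0.3 of vehicle (SE 0.17, adjusted p = 3.53e-06) and Arl4c to 0.8 (SE 0.07, adjusted p = 0.00545). Without the block 0 of the 9 passed (adjusted p = 0.757 for Abca1 and 0.587 for Apoe).

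Cell cycle genes were lower in the same libraries. Of 23 proliferation genes 21 fell with TNF (0 without the block), and their median was -0.37, at -0.49, -0.46, -0.30 and -0.19 in animals 1 to 4. Their summed level was 2260 to 3500 CPM with vehicle and 1860 to 2610 CPM with TNF. The summed monocyte and macrophage markers were at 26700 to 37600 CPM with vehicle and 37000 to 45600 CPM with TNF, where 6 of 12 rose and 4 fell. The summed neutrophil markers were at 11800 to 23700 and 10400 to 15900 CPM, where 1 of 10 rose and 4 fell. The part of these lists in the sterol result was not tested.

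Among the fatty acid genes, Elovl6, which lengthens palmitate, measured 20.2, 26.9, 24.7 and 27.9 CPM with vehicle and 15.1, 17, 16.7 and 19.3 CPM with TNF. The groups did not overlap (log2 -0.55, SE 0.08, adjusted p = 0.000149), and the call also held without the block (adjusted p = 0.0228). Fads1, a desaturase of polyunsaturated fatty acids, measured 38.7, 42.4, 42.5 and 45.0 CPM with vehicle and 30.3, 32.7, 29.3 and 31.0 CPM with TNF, again with no overlap (log2 -0.44, SE 0.09, adjusted p = 0.0029, and 0.0683 without the block). Fasn, the fatty acid synthase, measured 97, 145, 88.2 and 122 CPM with vehicle and 62.0, 97.7, 68.8 and 81.3 CPM with TNF. Fasn was lower in each animal with overlapping groups (log2 -0.54, SE 0.12, adjusted p = 0.00417, and 0.291 without the block). All 3 passed in each of the 20 fits. Elovl6 has a near-identical copy, Gm11295.

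Acly and Acaca, which act before the synthase, did not pass the test. Acly, which makes cytosolic acetyl-CoA from citrate, stood at 0.934 of vehicle (log2 -0.10, SE 0.07, adjusted p = 0.329) and Acaca, which carboxylates it, at 0.917 (log2 -0.13, SE 0.08, adjusted p = 0.271). Srebf1 measured 94.3, 102, 117 and 113 CPM with vehicle and 77.1, 84.5, 111 and 107 CPM with TNF, lower in 4 of 4 animals and short of the threshold (log2 -0.18, SE 0.08, adjusted p = 0.139). Fads2, the partner desaturase of Fads1, stood at 0.765 of vehicle (SE 0.18, adjusted p = 0.142).

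Acss2, which makes acetyl-CoA from acetate, was the single gene of the 34 that rose. It measured 15.2, 16.0, 19.9 and 20.3 CPM with vehicle and 57.7, 77.0, 22.6 and 23.2 CPM with TNF in animals 1 to 4. The groups did not overlap, but the size came from animals 1 and 2, whose log2 differences were 1.89 and 2.23, against 0.18 and 0.19 in animals 3 and 4. The fit gave log2 1.22 (SE 0.27, adjusted p = 0.00437, and 0.0641 without the block), and the call was lost without animal 1 or animal 2 (adjusted p at most 0.0598). Acss2 overlaps Gss, Ggt7 and Acss2os on the other strand. Gss, which makes glutathione, measured 30.7, 27.6, 18.5 and 20 CPM with vehicle and 70.4, 90.0, 23.6 and 22.7 CPM with TNF, again high in animals 1 and 2 (log2 0.94, SE 0.18, adjusted p = 0.00156). The library kit marks strand, no source used here gives the strand setting of the counting, and reads of this pair cannot be assigned with certainty. Acss2 lies on chromosome 2 at 155517948 to 155585724 (plus strand).

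The stearoyl-CoA desaturases, which make monounsaturated fatty acids, differed in what set their level. Scd2 measured 105, 102, 237 and 222 CPM with vehicle and 77.3, 78.6, 217 and 242 CPM with TNF, so that it followed the animal: animal accounted for 94.1% of its sum of squares and treatment for 2.77% (TNF against vehicle log2 -0.20, SE 0.09, adjusted p = 0.159). Scd1 was low, with 1.45, 0.45, 2.91 and 2.91 CPM with vehicle and 0.88, 1.03, 1.41 and 1.12 CPM with TNF (log2 -0.60, SE 0.34, adjusted p = 0.241). Animal 2 was higher with TNF and the other animals were lower.

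**Figure D3:**
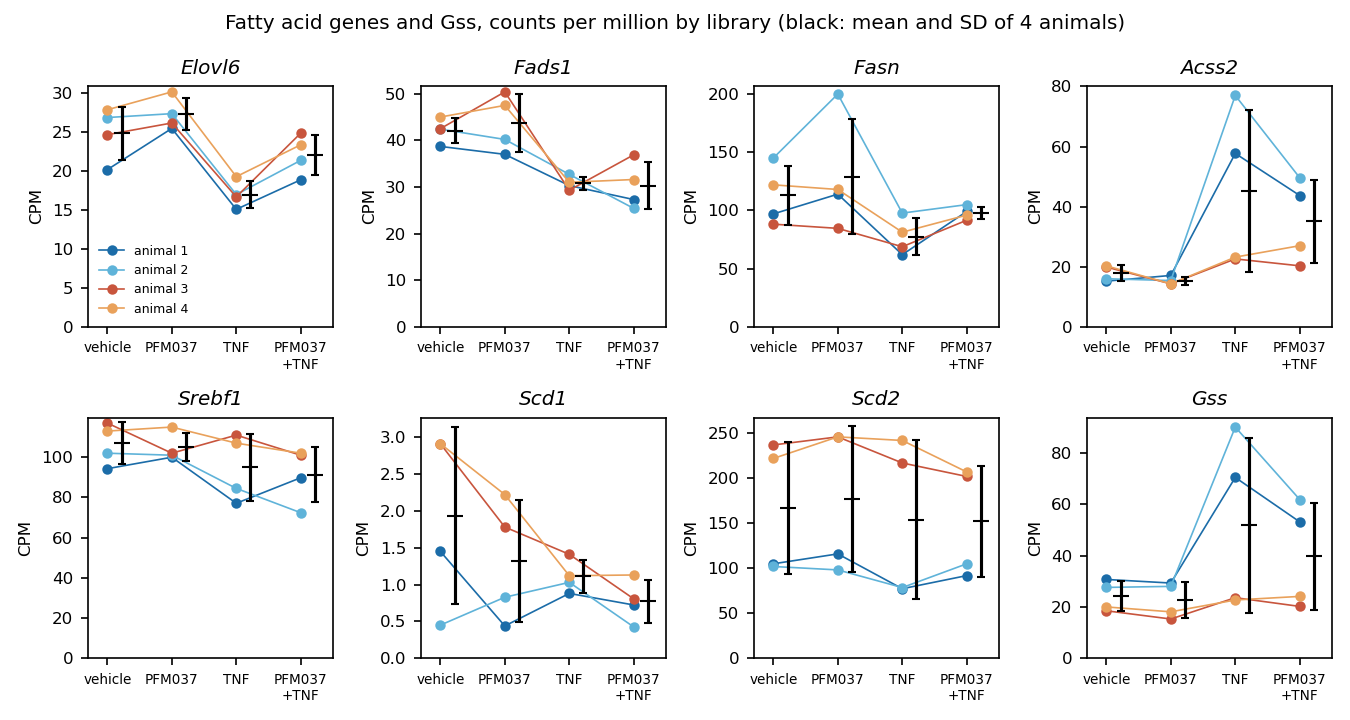
CPM in each library for 7 fatty acid genes and for Gss, which overlaps Acss2, from an axis that starts at 0; coloured lines join the 4 libraries of an animal and black marks give the mean and SD of 4 animals. Acss2 and Gss are high with TNF in animals 1 and 2 only, at 57.7 and 77.0 CPM for Acss2, and Scd2 parts the animals in all 4 groups.

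Of 19 measured genes of the wider fatty acid pathway, 3 rose and 4 fell with TNF, with a median of -0.03. Acsl1 and Acsl4, which activate long-chain fatty acids, rose 1.52-fold (log2 0.60, SE 0.07, adjusted p = 1.58e-05) and 1.58-fold (SE 0.12, adjusted p = 0.00117). Malic enzyme Me1, a source of NADPH, rose 2.21-fold (SE 0.18, adjusted p = 0.000207), more in animals 1 and 2 (log2 differences 1.53 and 1.11) than in animals 3 and 4 (0.67 and 0.72). Tecr, the last enzyme of the elongation cycle, fell to 0.813 of vehicle (log2 -0.30, SE 0.07, adjusted p = 0.00677), Aacs, which activates acetoacetate, to 0.77 (SE 0.09, adjusted p = 0.00803), and the mitochondrial citrate carrier Slc25a1 to 0.841 (SE 0.07, adjusted p = 0.0149). Mid1ip1, an activator of acetyl-CoA carboxylase, fell to 0.84 (SE 0.07, adjusted p = 0.0157). Without the block, of these 7 genes, Acsl1 alone passed (adjusted p = 0.00326).

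PFM037 without TNF moved no sterol or fatty acid gene past the threshold, in edgeR, DESeq2 or limma-voom, and 0.0794% of all genes were called by edgeR, 0.065% lower and 0.0144% higher. No member's groups were without overlap, against 0.65% of all genes lower and 0.52% higher. At an unadjusted p under 0.05, 5 of 24 sterol genes and 0 of 10 fatty acid genes passed, against 1195 of 13856 genes. Sterol genes were slightly lower: 22 of 24 lay below 0 (19 with scaling by library size alone), and the median was -0.15 against 0.00 for all genes. The medians in animals 1 to 4 were -0.01, -0.16, -0.21 and -0.19, so animal 1 did not show it. This comparison shares its vehicle libraries with TNF against vehicle and with the interaction, so their directions are not independent. Insig1 measured 61.5, 55.4, 86.7 and 82.3 CPM with PFM037, lower than vehicle in 4 of 4 animals (log2 -0.26, SE 0.07, adjusted p = 0.209), and Hmgcs1 measured 74.9, 59.9, 94.3 and 92.4 CPM (log2 -0.26, SE 0.08, adjusted p = 0.305). Sqle, at 76.3, 75.0, 63.8 and 71.5 CPM, and Dhcr7, at 17.3, 20.7, 21.9 and 23.3 CPM, were nearer to vehicle (log2 -0.13, SE 0.07, and -0.01, SE 0.08). When only the vehicle and PFM037 libraries were fitted, 1 sterol gene was called, and in that fit 56 of 13380 genes were called higher and 183 lower (1.37%).

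The fatty acid genes with PFM037 alone had a median of 0.06 and 6 of 10 above 0. Elovl6 measured 25.5, 27.4, 26.2 and 30.2 CPM (log2 0.14, SE 0.08) and Fads1 37.0, 40.2, 50.4 and 47.5 CPM (log2 0.05, SE 0.09). Acss2 measured 17.1, 15.4, 14.3 and 14.3 CPM (log2 -0.27, SE 0.28), without the high values that animals 1 and 2 had with TNF. Proliferation genes lay above 0 in 22 of 23 cases, with a median of 0.18, and 0 of 23 passed the threshold.

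TNF was also compared in the presence of PFM037, a comparison that shares no library with TNF against vehicle. Of the sterol genes 10 fell and 0 rose, 22 of 24 lay below 0, and the median was -0.27, at -0.24, -0.25, -0.16 and -0.28 in animals 1 to 4; of all genes 9.76% were called lower and 10.6% higher. The 10 were Mvk, Fdft1, Sqle, Cyp51, Tm7sf2, Msmo1, Ebp, Dhcr7, Insig1 and Stard4, all 10 of them among the 18 that fell without PFM037 (55.6% of the 18). Without the block 1 was called, Sqle, where 2.25% of all genes were called, 0.714% lower and 1.54% higher. In each fit without animal 1, animal 4 or the PFM037 library of animal 1 the count was 6. It was also 6 when only these 2 groups were fitted, where 6.51% of all genes were called lower.

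Proliferation genes were lower in the same comparison, with 15 of 23 called lower (0 without the block), 23 of 23 below 0 and a median of -0.28, at -0.33, -0.49, -0.05 and -0.24 in animals 1 to 4. Their summed level was 2530 to 3960 CPM with PFM037 and 2370 to 2800 CPM with both agents. Of the monocyte and macrophage markers 7 of 12 rose and 2 fell, with summed levels of 24000 to 35500 and 35700 to 43500 CPM. Of the neutrophil markers 2 of 10 fell and 0 rose, with summed levels of 12100 to 25500 and 11800 to 24100 CPM. The part of these lists in the sterol result was not tested.

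With both agents Sqle measured 44.8, 51.2, 54.0 and 52.7 CPM, below all 4 PFM037 libraries (log2 -0.50, SE 0.08, adjusted p = 0.000175). Cyp51 measured 40.2, 49.4, 58.5 and 56.6 CPM (log2 -0.49, SE 0.08, adjusted p = 0.000434), again with no overlap. Dhcr7 measured 12.4, 13.7, 16.7 and 16.2 CPM, also below all PFM037 libraries (log2 -0.50, SE 0.08, adjusted p = 0.000332). Mvk was the other gene whose groups did not overlap (log2 -0.36, SE 0.12, adjusted p = 0.0346), and these 4 genes are 16.7% of the sterol genes, against 4.2% of all genes lower and 4.98% higher. Mvk missed the threshold in 8 of the 20 fits, Fdft1 in 16, Tm7sf2 in 6 and Msmo1 in 4.

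Of the regulators, Insig1 and Stard4 fell here too. Insig1 measured 46.4, 47.0, 66.5 and 61.8 CPM with both agents (log2 -0.36 against PFM037, SE 0.07, adjusted p = 0.00171) and Stard4 34.5, 44.7, 57.0 and 53.9 CPM (log2 -0.30, SE 0.07, adjusted p = 0.00546). Insig2 measured 26.8, 20.5, 32.5 and 32.4 CPM with PFM037 and 27.4, 29.0, 28.2 and 32.2 CPM with both (log2 0.08, SE 0.10, adjusted p = 0.58). Srebf2 measured 186, 218, 184 and 214 CPM with PFM037 and 187, 169, 192 and 177 CPM with both (log2 -0.14, SE 0.09, adjusted p = 0.288), and Scap 53.6, 61.9, 37.1 and 40.5 CPM with PFM037 and 49.1, 38.9, 39.0 and 33.3 CPM with both (log2 -0.25, SE 0.10, adjusted p = 0.0945). Hmgcs1, at 66.7, 70.4, 87.8 and 85.8 CPM with both, did not differ from PFM037 beyond its error (log2 -0.04, SE 0.08, adjusted p = 0.785).

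Of the fatty acid genes 3 fell and 1 rose with TNF in the presence of PFM037, where 20.4% of all genes were called in either direction. Elovl6, at 18.9, 21.4, 24.9 and 23.4 CPM with both, fell by 0.31 on the log2 scale (SE 0.08, adjusted p = 0.0114), and Fads1, at 27.3, 25.4, 36.9 and 31.6 CPM, fell by 0.53 (SE 0.09, adjusted p = 0.000594); neither overlapped with PFM037. Fads2 fell to 0.641 of PFM037 (SE 0.17, adjusted p = 0.0162). Acss2 measured 43.7, 49.6, 20.3 and 27.0 CPM, above all PFM037 libraries (log2 1.15, SE 0.27, adjusted p = 0.00719), and Gss measured 53.1, 61.8, 20.2 and 24.1 CPM. Here the log2 differences of Acss2 in animals 1 to 4 were 1.33, 1.65, 0.50 and 0.89. Fasn, at 114, 200, 84.6 and 118 CPM with PFM037 and 99.1, 105, 91.6 and 96.0 CPM with both, did not pass (log2 -0.34, SE 0.12, adjusted p = 0.0513). The count of 4 became 1 without the block (Fads1) and 2 without animal 2 or animal 4.

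No sterol gene passed when PFM037 was added to TNF. Against TNF alone 0 of 24 were called in edgeR, DESeq2 or limma-voom, 0 had an unadjusted p under 0.05 (2132 of 13856 genes did), and the median was -0.00, at 0.08, 0.05, -0.01 and -0.10 in animals 1 to 4. Of the fatty acid genes Elovl6 rose, from 15.1, 17, 16.7 and 19.3 CPM to 18.9, 21.4, 24.9 and 23.4 CPM, higher in 4 of 4 animals with overlapping groups (log2 0.38, SE 0.08, adjusted p = 0.0397), where 1.36% of all genes were called, 0.534% higher and 0.823% lower. No member's groups were without overlap, against 1.49% of all genes lower and 1.29% higher. The Elovl6 call was missed in 15 of the 20 fits, among them each one without an animal, and without the block (adjusted p = 1). Fasn (log2 0.37, SE 0.12, adjusted p = 0.139) and Acaca (0.25, SE 0.08, adjusted p = 0.116) were also higher in 4 of 4 animals and did not pass. Acss2 stood at 0.792 of TNF alone (SE 0.26 on the log2 scale, adjusted p = 0.571).

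Proliferation genes lay above 0 in 22 of 23 cases in the same comparison, with 3 called higher (0 without the block). Their median was 0.26, while the sterol median was -0.00. Neutrophil markers had a median of 0.26, at 0.43, 0.65, -0.09 and 0.22 in animals 1 to 4, so animal 3 did not show it. Of these markers 2 of 10 were called higher (0 without the block), and their summed level with both agents was 11800 to 24100 CPM.

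**Figure D4:**
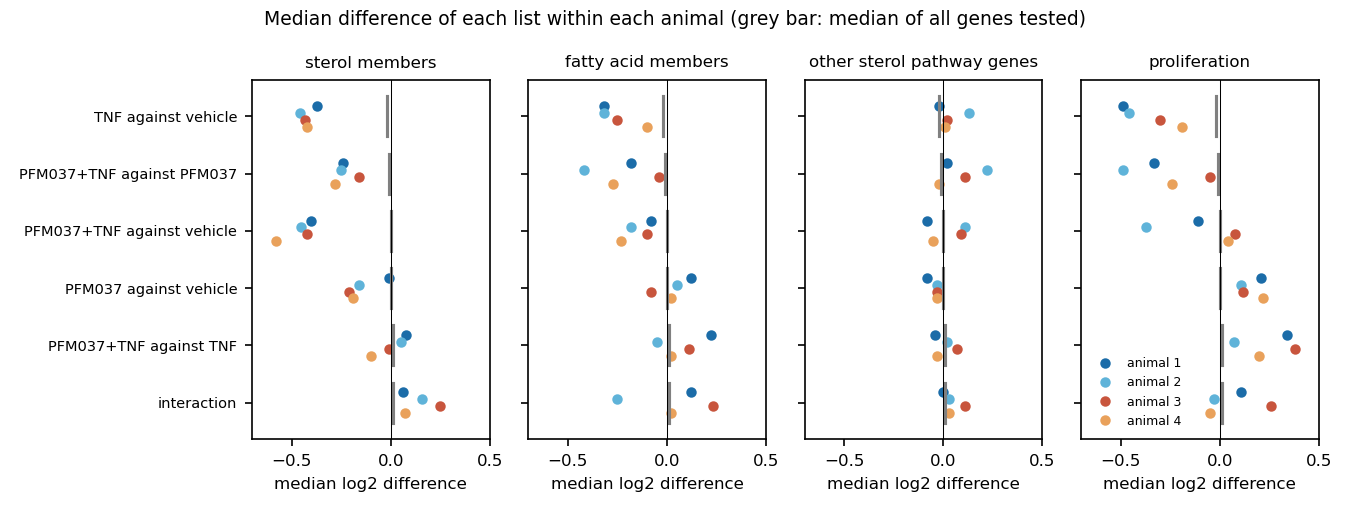
Median log2 difference within each of the 4 animals (coloured points) for sterol genes, fatty acid genes, other genes of the sterol pathway and proliferation genes in 6 comparisons, with the median of all genes tested as a grey bar. Sterol medians lie below 0 in each animal in the 3 comparisons that add TNF. For PFM037 against vehicle they also lie below 0, barely so in animal 1 (-0.01). They scatter around 0 for PFM037+TNF against TNF, where proliferation medians lie above 0 in each animal.

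Against vehicle, both agents together lowered 17 of 24 sterol genes and raised 0, with 23 of 24 below 0 and a median of -0.38, at -0.40, -0.45, -0.42 and -0.58 in animals 1 to 4; 12.0% of all genes were called lower and 12.8% higher. This comparison shares its vehicle libraries with TNF against vehicle. Groups did not overlap for 8 sterol genes (Mvk, Pmvk, Fdps, Fdft1, Sqle, Cyp51, Msmo1 and Dhcr7), or 33.3%, against 5.27% of all genes lower and 4.81% higher. Insig1 stood at 0.651 of vehicle (SE 0.07 on the log2 scale, adjusted p = 1.14e-05), Sqle at 0.645 (SE 0.07, adjusted p = 1.78e-05) and Fdps at 0.567 (SE 0.18, adjusted p = 0.00356). The count was 2 without the block (Mvk and Sqle), where 2.63% of all genes were called, 1.26% lower and 1.38% higher, and it was 11 without animal 4. The median of the proliferation genes in the same comparison was -0.09, with 5 of 23 called lower.

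For the fatty acid genes the same comparison found Scd1, Srebf1 and Fads1 lower and Acss2 higher, with 24.8% of all genes called. Fads1 stood at 0.714 of vehicle (SE 0.09 on the log2 scale, adjusted p = 0.00107) and Srebf1, at 89.8, 72.4, 101 and 102 CPM with both agents, at 0.852 (SE 0.08, adjusted p = 0.0469). Scd1, at 0.723, 0.425, 0.806 and 1.13 CPM, fell by 1.24 on the log2 scale (SE 0.36, adjusted p = 0.0176), with little change in animal 2 (-0.04). Of the 20 fits Srebf1 missed the threshold in 16, Scd1 in 6 and Acss2 in 6, and Fads1 in none. Without the block 0 were called, and leaving out animal 2, 3 or 4, any vehicle library, or the PFM037+TNF library of animal 2 or animal 4 gave a count of 2.

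The interaction asks whether TNF changed a gene by a different amount with PFM037 than without it. It holds the same vehicle libraries as TNF against vehicle and PFM037 against vehicle, so its direction is not independent of theirs. No gene of the 13856 passed in edgeR, DESeq2 or limma-voom, with 383 at an unadjusted p under 0.05, among them 2 sterol genes (Hmgcs1 and Hsd17b7) and 1 fatty acid gene (Elovl6). For sterol genes 23 of 24 interaction terms lay above 0, against 54.4% of all genes. With scaling by library size alone 22 did, and with the filter of 5 CPM in 4 libraries 20 of 23. The median was 0.14, at 0.06, 0.16, 0.25 and 0.07 in animals 1 to 4. Hsd17b7 had the largest, 0.44 (SE 0.15), followed by Hmgcs1 at 0.32 (SE 0.12), and Sqle had 0.18 (SE 0.11). Fatty acid genes had a median of -0.01 and 5 of 10 above 0. A difference between the TNF effects with and without PFM037 was therefore not shown for any single gene.

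Over all 16 libraries the 34 genes differed in how far treatment or animal set their level. Treatment's share of the sum of squares of log2 CPM was highest for Sqle (89.9%), Elovl6 (77.1%), Fads1 (74.3%), Dhcr7 (73.0%), Cyp51 (70.2%) and Mvk (68.2%). The animal's share was highest for Scd2 (94.1%), for Acly, Acaca and Tmem97 (73.9% each), and for Hmgcs1 (68.7%) and Idi1 (68.3%). Animals 3 and 4 were higher than animals 1 and 2 by 1.24 (log2) for Scd2, 0.83 for Fads2 and 0.58 for Insig1. The same difference was -0.58 for Acss2, -0.53 for Tmem97 and -0.44 for Scap.

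**Figure D5:**
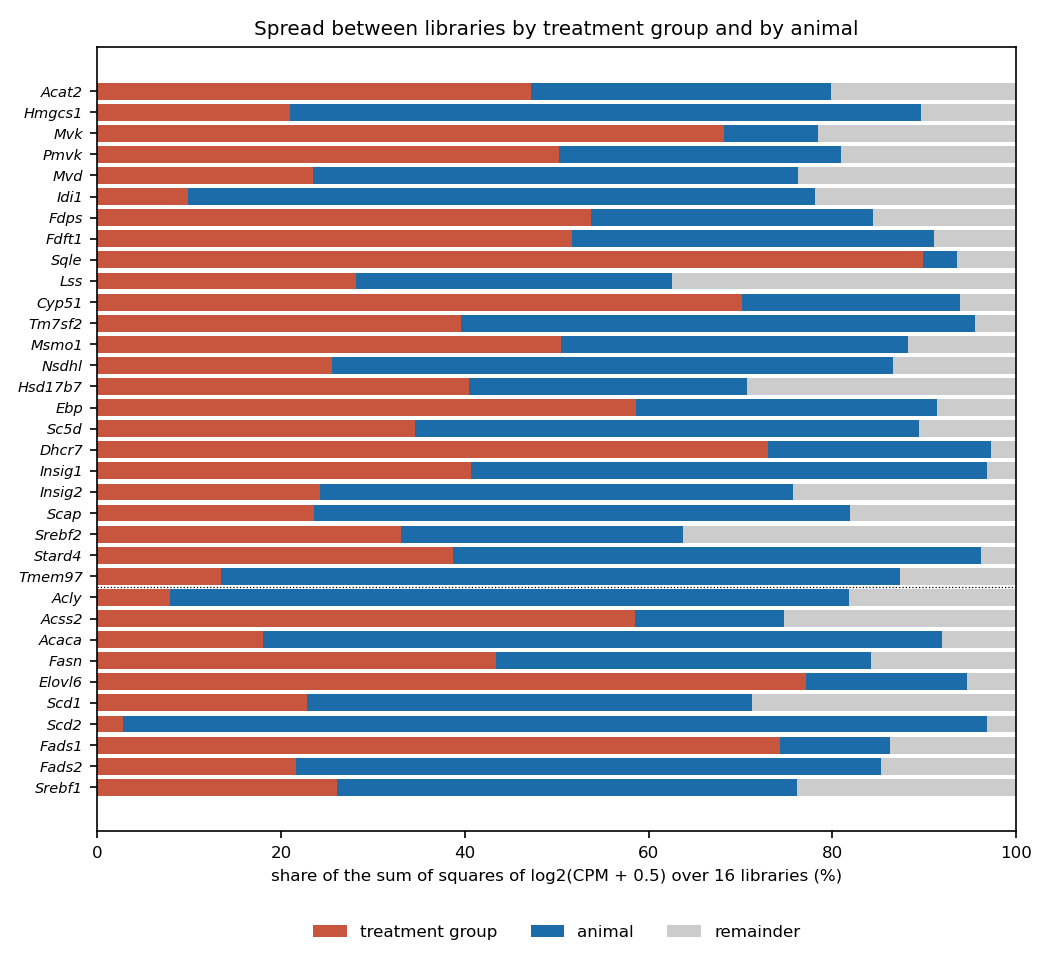
Share of the sum of squares of log2(CPM + 0.5) over 16 libraries that lies between treatment groups, between animals and in neither, for the 24 sterol genes (above the dotted line) and the 10 fatty acid genes. Treatment takes 89.9% for Sqle and 2.77% for Scd2, for which the animal takes 94.1%.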

How the data were processed

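Per the labels' protocols, RNA of each culture went into a stranded poly(A) kit (TruSeq) and single reads were taken on a NextSeq. Per the submitters' processing notes, STAR 2.5.3a, featureCounts, limma and the build mm10 (GRCm38) were used; order, settings, annotation release and strand setting are not given there. What the authors deposited is a table of raw count values per gene for 16 libraries, not normalized, in which 30556 genes had a count and 26 rows carry a date as their name.

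Testing used edgeR 4.0.16 under R 4.3.3 (glmQLFit and glmQLFTest, TMM, filterByExpr with a minimum count of 10 and total of 15; 13856 genes tested). The model held all 16 libraries, a mean for each group and the animal as a block (9 residual degrees of freedom). The Benjamini-Hochberg adjustment covered the 13856 genes, with a threshold of 0.05. The labels name the same 4 individuals in each group; deviations from group means correlated at 0.552 to 0.836 between the 24 pairs of libraries of the same animal, and at -0.747 to 0.668 between different animals. No pair of libraries of a group agreed within sampling noise. Chi-square per degree of freedom was 6.781 to 8.892 between animals 3 and 4 and 15.692 to 107.989 between all other pairs of animals. SE was taken as the size of the log2 fold change over the root of F. Differences within an animal used log2(CPM + 0.5). The script was tested on simulated data.

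Members and gene lists were chosen with earlier results of these data known, and lists are therefore described by counts and medians. Values in every library are given for the 8 sterol and 5 fatty acid genes with the smallest p for TNF, the SREBP regulators and the Scd genes, plus others that a result turns on. Gene positions, exon lengths, overlaps and near-identical sequence in other genes (at least 300 bases at 97% identity, BLAST 2.17.0) are from GENCODE M21 on GRCm38. Alternatives were no block, DESeq2 size factors, library size alone, no filter, a filter of 5 CPM in 4 libraries, DESeq2 1.42.0, limma-voom (limma 3.58.1), only the groups compared, and each animal or library left out. Some genes of the wider sterol pathway are not reported here.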

Additional observations from a re-analysis of the deposited data

Results flagged for a closer look

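In 5 of the 136 groups of 4 libraries (34 genes in 4 groups), a single library stood far from the other 3, by a test that flags about 1 group in 20 by chance. Insig2 was at 22.0 CPM with vehicle in animal 2, where the other animals had 29.2 to 30.6 CPM. Acat2 was at 10.2 CPM with vehicle in animal 1 (13.5 to 14.0 CPM in the others) and at 14.0 CPM with PFM037 in animal 4 (11.5 to 11.8 CPM). Acaca was at 32.0 CPM with vehicle in animal 4 (23.2 to 24.6 CPM), and Srebf1 at 115 CPM with PFM037 in animal 4 (100 to 102 CPM).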

How the results depend on the processing

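No called value changed sign under any alternative run. Leaving out the replicate block, that is the pairing by animal, changed most: called sterol genes became 3 for TNF against vehicle, 1 for PFM037+TNF against PFM037 and 2 for PFM037+TNF against vehicle, and called fatty acid genes 1, 1 and 0, and 0 for PFM037+TNF against TNF; of 58 calls, 50 were lost and 8 were kept. Library size alone moved the sterol medians to -0.42 (TNF) and -0.33 (TNF with PFM037). Over all genes it gave 1064 higher and 2148 lower for TNF (1329 and 1363 with TMM), and 1057 and 2275 for TNF with PFM037 (1475 and 1353 with TMM). Fitting only the groups compared gave 1 sterol call for PFM037 and 6 for TNF with PFM037. The filter of 5 CPM moved the fatty acid median for TNF to -0.19, since it leaves fewer genes tested, and no filter gave 3 fatty acid calls for PFM037+TNF against TNF, where 280 of 30556 genes were called higher and 373 lower (74 and 114 of 13856 with the filter). The cause of the other shifts was not tested. Of the 58 single calls DESeq2 lost 2, DESeq2 size factors 2, limma-voom 1, and the fits of only the groups compared 13.

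With an animal or library left out, sterol calls ran from 12 to 21 for TNF, 6 to 12 for TNF with PFM037 and 11 to 18 for both agents against vehicle, and stayed at 0 for PFM037, PFM037+TNF against TNF and the interaction. Fatty acid calls ran from 3 to 5, 2 to 6 and 2 to 4 in the first 3 comparisons, and 0 to 2 for PFM037+TNF against TNF. Sterol medians ran from -0.42 to -0.32 for TNF, -0.33 to -0.22 for TNF with PFM037 and -0.42 to -0.34 for both; the fatty acid median for both agents against vehicle ran from -0.26 to -0.12. Where a fit leaves a group with 3 libraries, the spread is still pooled over all groups. Depth limits Scd1 and Fdps most, at a few CPM. P-values of the main fit set a treatment difference against the spread between these cultures that is left once the animal is taken as a block.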
